A study of Homo sapiens with 12 samples.

Results

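The circular RNAs (circRNAs) described here are the 5 whose host gene the deposited table gives as ARHGAP5, of 17938 circRNAs in all. All 5 had at least 1 read and are accounted for below, but together they held 141 reads, of which 134 belonged to a pair of junctions. The gene was selected on measured values: 1 of its junctions passed the test between resistant and sensitive HCT116 cells, on the read counts of those 6 libraries. Values of that comparison, and of any other that uses HCT116 libraries, are therefore given as a description of the junctions and without a test. The comparison within Lovo contrasts other libraries and was tested. It shares the count filter and the estimate of spread with the HCT116 libraries, since all 12 entered 1 fit, and the junction passed the filter through resistant HCT116.

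The study sequenced rRNA-depleted total RNA as 12 directional libraries, from HCT116 and Lovo, 2 established lines of human colorectal cancer. The 4 groups were HCT116 cells resistant to 5-fluorouracil (5-Fu), parental and sensitive HCT116 cells, resistant Lovo cells, and parental and sensitive Lovo cells, with 3 libraries each. 5-Fu is a fluoropyrimidine that blocks thymidylate synthesis. Resistant cells of both lines had been selected in the drug at doses raised from 0.1 to 2 μg/ml and withstood the last dose for at least 3 days, per the labels. The labels name no separate cultures or selections behind the 3 libraries of a group, so the spread and the p-values below may be technical, and resistance cannot be told apart from other differences between a derivative and its parent. Nor do they say whether a resistant population was a clone.

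Junction reads per library ranged from 5654 to 10535, which limits every value below. Among host genes that mark cell types, 6 of 15 intestinal epithelium genes had circRNA reads, with 13 and 10 reads in resistant and sensitive HCT116 and 18 and 25 in resistant and sensitive Lovo. Summed over that list, libraries ranged from 114 to 1037 CPM in resistant HCT116, 0 to 612 in sensitive HCT116, 415 to 1150 in resistant Lovo and 476 to 2456 in sensitive Lovo. EPCAM, an epithelial adhesion molecule, had reads in all 4 groups. CDH1, VIL1, CDH17 and LGR5 had reads in Lovo and 0 in both HCT116 states, and HNF4A had 4 reads in sensitive HCT116 and 3 in resistant Lovo. KRT8, KRT18, KRT19, KRT20, CDX1, CDX2, MUC2, CEACAM5 and ELF3 had none. The 10 fibroblast and 9 immune marker genes had 0 reads in all 12 libraries. Junction reads are no measure of the mRNA of these genes.

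ARHGAP5 encodes p190-B RhoGAP, a GTPase-activating protein (GAP). Such proteins switch off small GTPases by speeding their hydrolysis of GTP, and exchange factors (GEFs) switch them on. A circRNA forms when the end of an exon is spliced back to the start of the same or an upstream exon, and a read across that back-splice junction identifies it. Linear ARHGAP5 RNA leaves no such read, so whether the mRNA differed between the groups was not tested. In bulk samples, fewer cells with a circRNA and less of it per cell cannot be told apart.

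All 5 junctions lay on the plus strand of chromosome 14 within 62027 bases (hg19, positions counted from 1), and 4 of them had a circBase record. The most abundant, hsa_circ_0031584, joined 32586493 back to 32559708, was classed as exonic and had a predicted length of 4030 bases. The second, hsa_circ_0031583, ran from the same start to 32563592. Its predicted length of 3885 bases equals its genomic span, so the prediction holds no removed intron. The third, hsa_circ_0101642, ran from the same start to 32615546 with 4108 predicted bases. Each longer circle thus adds sequence downstream of a shared start, 145 bases for hsa_circ_0031584 and a further 78 for hsa_circ_0101642. The exonic hsa_circ_0101643 (32586349 to 32621734, 461 predicted bases) starts 145 bases before the end of hsa_circ_0031584, the length that circle adds. The fifth junction (32585954 to 32621734), with no circBase record and classed as sense overlapping, shares its end with hsa_circ_0101643. Its predicted length, 35781 bases, is the whole span with nothing removed.

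**Figure D1:**
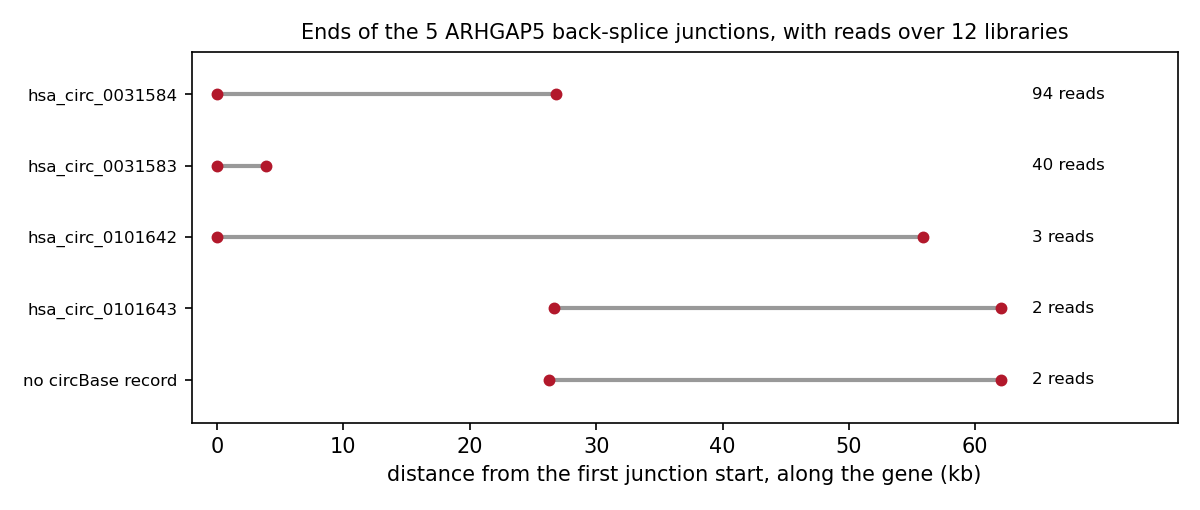
Each line joins the ends of an ARHGAP5 junction, with the distance from the first junction start on the x axis in kb and the reads over 12 libraries at the right. The 3 junctions with the first start held 94, 40 and 3 reads, and the 2 with the last end held 2 reads each.

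Reads gathered at the shared start. Junctions beginning at 32559708 held 137 of the 141 ARHGAP5 reads (97.2%). The main pair is also long for circRNAs: of 11986 exonic circRNAs with at least 1 read, whose median predicted length was 564 bases, 87 (0.726%) were longer than hsa_circ_0031584 and 91 (0.759%) longer than hsa_circ_0031583. Of 274 exonic circRNAs that passed the count filter, 2 were longer than hsa_circ_0031584. These lengths come from the authors' annotation and were not measured by the junction reads. The others at or above the length of hsa_circ_0031583 after the filter were circRNAs of QSER1, FAT1 and a host listed as G053490. The QSER1 circRNA (hsa_circ_0021570) had 6 and 17 reads in resistant and sensitive HCT116, and 43 and 27 in resistant and sensitive Lovo.

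Whether promoter activity differed between the groups was not tested, and the promoter of ARHGAP5 is shown as background on the gene. It covers 250 bases before to 50 bases after the start of the gene in RefSeq (GRCh38.p14, chr14:32077054-32077353, plus strand), a build other than that of the junctions, with the GC box in capitals.
ARHGAP5 promoter: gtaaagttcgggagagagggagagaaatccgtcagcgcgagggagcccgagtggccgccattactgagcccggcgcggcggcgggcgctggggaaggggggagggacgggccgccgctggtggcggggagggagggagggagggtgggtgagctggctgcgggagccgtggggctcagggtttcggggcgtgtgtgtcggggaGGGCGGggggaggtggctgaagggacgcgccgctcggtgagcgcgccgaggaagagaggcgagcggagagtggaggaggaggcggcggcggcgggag
The window held 74.3% G and C, against a median of 58.7% over 35116 RefSeq promoters of the same length. A GC box (GGGCGG, searched on both strands) was found once, on the plus strand, and occurs in 45.0% of those promoters. CCAAT, found in 34.6% of promoters, and TATAAA, found in 11.5%, were not in the window on either strand. The motifs did not overlap, and a match here describes letters and no binding.

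In HCT116, the comparison through which the gene was chosen, hsa_circ_0031584 had 34, 19 and 24 reads in the resistant libraries 1 to 3, against 3 reads in each sensitive library. As CPM (junction reads scaled to library depth with TMM factors), this was 3005 ± 814 CPM in resistant and 400 ± 82.4 CPM in sensitive HCT116 (SD, n = 3 each). All resistant libraries lay above all sensitive ones, with resistant replicate 1 highest. The ratio of summed reads was 7.75 (95% counting interval 3.88 to 17.6), and the fitted log2 fold change 2.89 ± 0.65 (SE). Counting intervals here and below are exact, conditional on the reads, and cover counting error alone. They leave out the spread between libraries. Where resistant HCT116 enters, they also leave out the choice of the gene on those reads, which favours a high ratio. PCR copies of a molecule were not marked, so reads may repeat it and the intervals may be too narrow.

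The second circle, hsa_circ_0031583, had 8, 4 and 13 reads in resistant HCT116, against 1 read in each sensitive library. Its level was 967 ± 495 CPM in resistant and 133 ± 27.5 CPM in sensitive HCT116 (SD, n = 3 each), and again the groups did not overlap. The share of all tested circRNAs that separate the states in this way was not counted. For both circles the separation is therefore a description and no result. The ratio was 7.55 (95% counting interval 2.30 to 39.1) and the fitted log2 fold change 2.75 ± 1.13 (SE), both close to those of hsa_circ_0031584. Here resistant replicate 3 was highest and replicate 2 lowest. Both circles passed the count filter through libraries where they were high, among them resistant HCT116 libraries, so their passing is no support.

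Of 300 circRNAs tested in HCT116, 2 were called higher in resistant cells (0.667%) and 1 lower (0.333%) by the edgeR quasi-likelihood test at an adjusted p under 0.05, and hsa_circ_0031584 is 1 of them, as the choice of the gene fixes. Among those 300, 4 had a larger fitted log2 fold change, and the median was -0.01. With 77 reads in resistant HCT116 it ranked 11 among 7035 circRNAs detected there, tied with 1 other. With 9 reads in sensitive HCT116 it ranked 359 among 7079, tied with 55 others. The second circle ranked 78 in resistant HCT116.

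**Figure D2:**
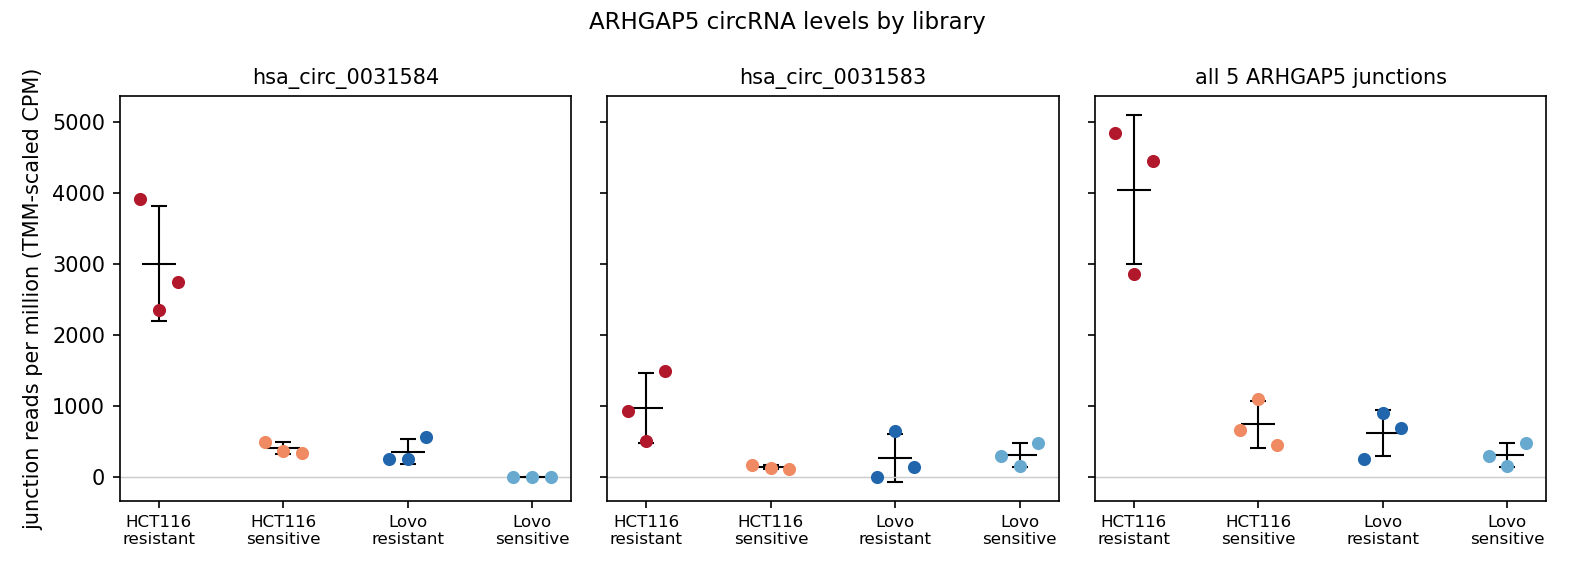
Points are libraries and black bars the mean ± SD of 3 libraries, on the y axis as TMM-scaled CPM, for the 2 main circles and for all 5 ARHGAP5 junctions summed. The resistant HCT116 libraries lie between 2357 and 3919 CPM for hsa_circ_0031584, and all 3 sensitive Lovo libraries are at 0.

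The remaining 3 junctions were sparse. Both junctions that end at 32621734 had 2 reads in sensitive HCT116 replicate 2 and none in any other library. The third circle of the shared start, hsa_circ_0101642, had 2 reads in resistant HCT116 replicate 3 and 1 in sensitive HCT116 replicate 2, and none in Lovo. At 1 or 2 reads a difference was not detectable at this depth. Taken outside hsa_circ_0031584, ARHGAP5 reads were 8, 4 and 15 in resistant HCT116, against 1, 6 and 1 in sensitive HCT116. The fitted log2 fold change of this remainder was 1.63 ± 0.94 (SE), or 2.85 without sensitive replicate 2, which held 6 of the 8 sensitive reads.

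Summed over all 5 junctions, ARHGAP5 had 42, 23 and 39 reads in resistant HCT116, against 4, 9 and 4 in sensitive HCT116. The sum stood at 4049 ± 1053 CPM in resistant and 737 ± 332 CPM in sensitive HCT116 (SD, n = 3 each). The ratio of the sums was 5.54 (95% counting interval 3.30 to 9.87). In host gene sums, 3 of 580 genes were called in HCT116 (0.517%), 2 higher in resistant cells (0.345%) and 1 lower (0.172%). The ARHGAP5 sum contains the junction on which the gene was chosen, 77 of its 104 resistant reads, so its own place among these is no result.

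Lovo gave a separate set of libraries. There hsa_circ_0031584 had 2, 2 and 4 reads in the resistant libraries 1 to 3, against 0 in all 3 sensitive libraries. Each resistant library held reads and no sensitive one did, at 354 ± 172 CPM in resistant and 0 CPM in sensitive Lovo (SD, n = 3 each, two-sided exact permutation p = 0.1, which is the lowest value with 3 libraries a side). A count of 0 in the 18289 reads of the sensitive group (19792 after TMM scaling) allows up to 152 CPM, the level of 3 reads over that scaled depth. With the sensitive group set at that floor, the resistant level was at least 2.30-fold higher, a value that leaves out the counting error of the 8 resistant reads. The lower limit of the 95% counting interval, which includes it, was 1.47-fold.

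The difference did not pass the test over all circRNAs. The edgeR quasi-likelihood p was 0.00459 before and 0.566 after Benjamini-Hochberg adjustment, over a range of adjusted p from 0.287 to 0.858 in 20 alternatives. Of the 300 circRNAs tested, 1 had a smaller p. The fitted log2 fold change of 4.48 ± 1.58 (SE) rests on a group at 0 reads, depends on the fit's prior count and is no bound. Of 300 circRNAs, edgeR called 0 in Lovo (0%), with 17 at an unadjusted p under 0.05, and DESeq2 and limma-voom called 0.

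The second circle did not separate the states in Lovo. Its reads were 0, 5 and 1 in resistant libraries 1 to 3, against 2, 1 and 3 in sensitive ones, and the groups overlapped. The level was 259 ± 336 CPM in resistant and 306 ± 163 CPM in sensitive Lovo (SD, n = 3 each). The fitted log2 fold change was -0.21 ± 1.17 (SE, edgeR adjusted p = 1, 0.904 to 1 in 19 alternatives). The sign rested on single libraries: the value was 0.49 without resistant replicate 1, 0.19 without sensitive replicate 3 and -1.87 without resistant replicate 2. The ratio of reads was 0.863 with a 95% counting interval of 0.231 to 3.23, so these counts leave room for differences of more than 3-fold either way. All Lovo reads outside hsa_circ_0031584 belonged to this circle.

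Over all junctions, ARHGAP5 had 2, 7 and 5 reads in resistant Lovo, against 2, 1 and 3 in sensitive Lovo. The sum was 613 ± 327 CPM in resistant and 306 ± 163 CPM in sensitive Lovo (SD, n = 3 each), with overlap between the groups. Its fitted log2 fold change of 0.97 ± 0.76 (SE) did not pass in edgeR's quasi-likelihood test (adjusted p = 0.951, range over 19 alternatives 0.723 to 1). By the same rule 0 of 580 host gene sums were called in Lovo (0%), with 30 at an unadjusted p under 0.05.

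**Figure D3:**
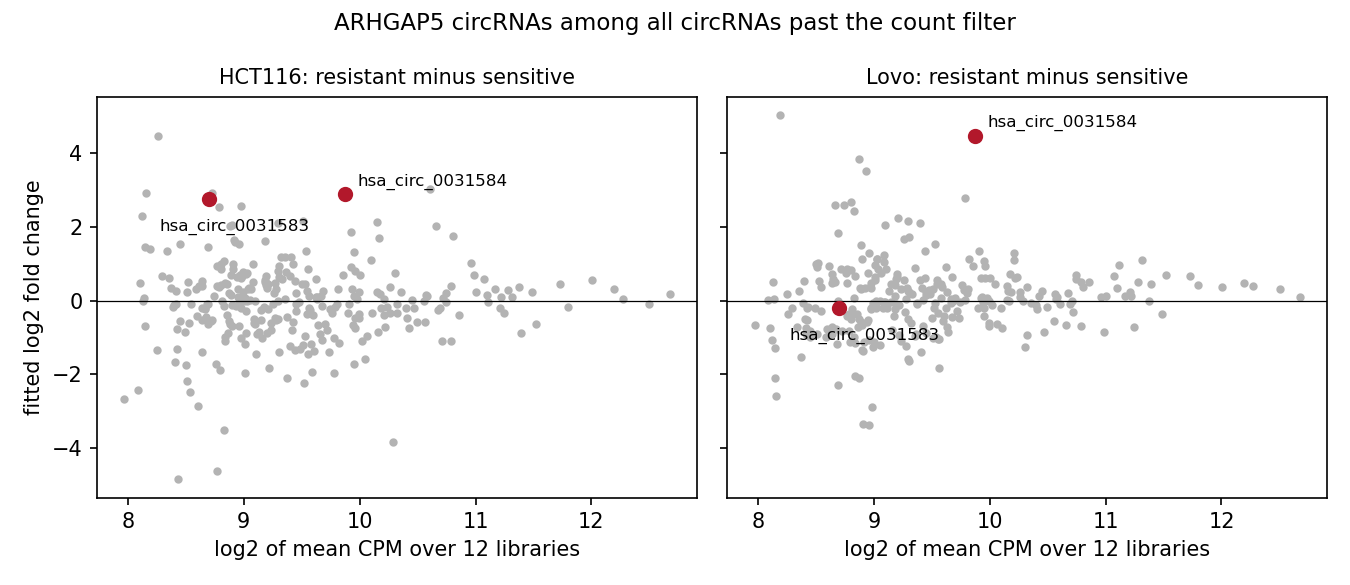
Fitted log2 fold changes on the y axis against the log2 of the mean CPM over 12 libraries on the x axis, for the 300 circRNAs that passed the count filter (grey) and the 2 ARHGAP5 circles among them (red). In HCT116, left, the circles lie together at 2.89 and 2.75, and in Lovo, right, they lie apart at 4.48 and -0.21.

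Across the 4 groups, the level of hsa_circ_0031584 ran from resistant HCT116 at 3005 CPM over sensitive HCT116 at 400 CPM and resistant Lovo at 354 CPM to sensitive Lovo at 0. The resistant HCT116 libraries (2357 to 3919 CPM) lay above all others. The choice of the gene fixes the direction against sensitive HCT116. It used no Lovo reads, but it favours high values in resistant HCT116 in any comparison. Sensitive HCT116 (339 to 494 CPM) and resistant Lovo (254 to 553 CPM) overlapped and did not differ beyond their spread. Resistant HCT116 held 8.66 times the level of resistant Lovo (95% counting interval 4.18 to 20.8). Sensitive HCT116 was at least 2.57-fold above sensitive Lovo set at its floor of 3 reads over the group, with a lower limit of the 95% counting interval of 1.69-fold.

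The order differed for hsa_circ_0031583. Resistant HCT116 was again highest at 967 CPM, but sensitive Lovo came next at 306 CPM, then resistant Lovo at 259 CPM and sensitive HCT116 at 133 CPM. The resistant HCT116 libraries (496 to 1484 CPM) lay above the sensitive Lovo ones (152 to 476 CPM). They overlapped the resistant Lovo ones, where replicate 2 stood at 639 CPM. Each of the other neighbours in this order overlapped. In the sensitive cells the lines thus stood in opposite order for the 2 circles, with 3 reads in HCT116 against 6 in Lovo for hsa_circ_0031583 (ratio 0.428, 95% counting interval 0.0693 to 2.01), an interval that includes no difference.

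The balance between the 2 circles can be read within each library, where depth cancels. In resistant HCT116, hsa_circ_0031584 took 34 of 42, 19 of 23 and 24 of 37 reads of the pair. In sensitive HCT116 it took 3 of 4 in every library. Pooled, this was 75.5% (95% exact binomial interval 66.0 to 83.5%) in resistant and 75.0% (42.8 to 94.5%) in sensitive HCT116. The point estimates of the difference in HCT116 were thus close for the 2 circles. The sensitive share rests on 12 reads, and its wide interval leaves room for factors that differ between the circles.

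In Lovo the balance rested on few reads. In resistant Lovo hsa_circ_0031584 took 2 of 2, 2 of 7 and 4 of 5 reads, against 0 of 2, 0 of 1 and 0 of 3 in sensitive Lovo. The mean share per library was 69.5 ± 36.8% in resistant and 0% in sensitive Lovo (SD, n = 3 each, two-sided exact permutation p = 0.1, again the lowest possible). Pooled, it was 57.1% (95% exact binomial interval 28.9 to 82.3%) in resistant and 0% (0 to 45.9%) in sensitive Lovo. These intervals overlap, and 6 reads are all that the sensitive share rests on. Of all ARHGAP5 reads, hsa_circ_0031584 held 74.0% in resistant HCT116 and 52.9% in sensitive HCT116. In sensitive HCT116 its share became 75.0% without replicate 2, and 46.2% without replicate 1 or without replicate 3. In resistant Lovo its 57.1% became 50% without replicate 1, 85.7% without replicate 2 and 44.4% without replicate 3.

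**Figure D4:**
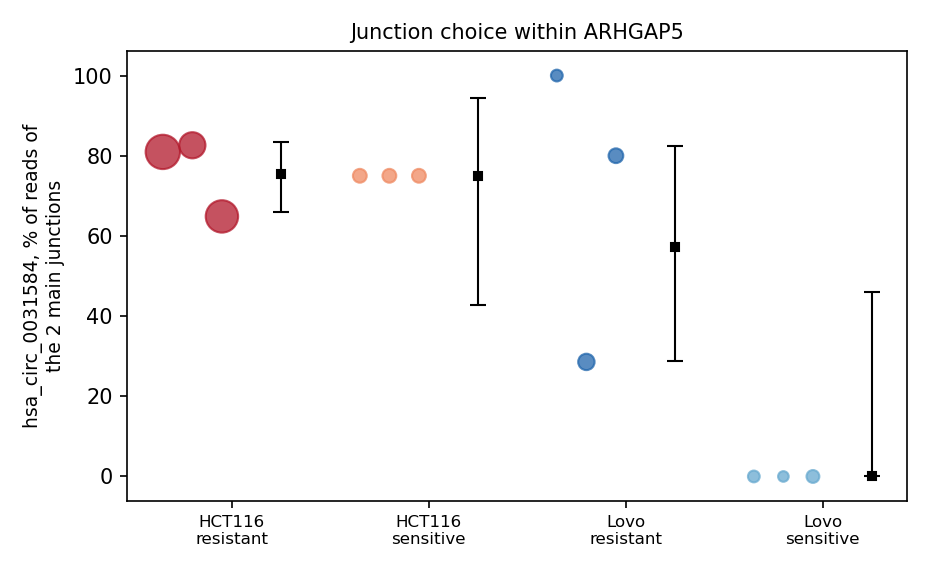
Coloured points give, per library, the percent of reads of the 2 main circles that belonged to hsa_circ_0031584, with larger points for more reads. Black squares give the pooled share with its 95% exact binomial interval, near 75% in both HCT116 states, 57.1% in resistant Lovo and 0% in sensitive Lovo.

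Among the other circRNAs past the filter, the 5 whose log2 CPM followed hsa_circ_0031584 most closely over the 12 libraries were hosted by USP34, ARHGAP12, FAT1, SPAG9 and CPNE1. Pearson's r lay between 0.865 for the USP34 junction and 0.783 for that of CPNE1. Over all circRNAs the median was -0.02 and the lowest -0.916, so values of this size also occurred in the opposite direction. The USP34 junction, from a deubiquitinase gene and with no circBase record, had 89 and 23 reads in resistant and sensitive HCT116 and 0 in both Lovo states. The ARHGAP12 circRNA hsa_circ_0000231, from another RhoGAP gene, had 202 and 149 reads in resistant and sensitive HCT116 and 61 and 38 in resistant and sensitive Lovo. That of CPNE1, a calcium-dependent phospholipid-binding protein, had 56 and 20 reads in resistant and sensitive HCT116 and 10 in each Lovo state. The libraries share line, state and scaling, and with the mean of each line removed r lay between 0.491 for SPAG9 and 0.737 for USP34.

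Genes close to ARHGAP5 on chromosome 14 had summed levels that overlapped between the 2 states of each line. Within 2 Mb of hsa_circ_0031584 the table listed 46 circRNAs of 10 other host genes. Their summed reads were 13, 12 and 15 in resistant HCT116, against 11, 9 and 14 in sensitive HCT116, which is 1567 ± 126 and 1498 ± 362 CPM (SD, n = 3 each). In Lovo they were 2826 ± 1209 CPM in resistant and 2774 ± 1350 CPM in sensitive cells (SD, n = 3 each). SCFD1, which takes part in vesicle transport, had 16 and 7 reads in resistant and sensitive HCT116 and 10 and 1 in resistant and sensitive Lovo, too few for the filter.

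The closest relative of ARHGAP5 is ARHGAP35, which encodes p190-A RhoGAP. It hosted 2 circRNAs, both classed as sense overlapping and both with more reads in sensitive than in resistant HCT116. The first, hsa_circ_0000943, had 1 read in the resistant and 9 in the sensitive HCT116 libraries, and 2 and 0 in resistant and sensitive Lovo. The second, hsa_circ_0109744, had 2 and 4 reads in resistant and sensitive HCT116 and none in Lovo. Neither passed the filter.

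Other genes of the RhoGAP and RhoGEF families gave no call. Of 61 further RhoGAP genes, 30 had circRNA reads, and 6 of their circRNAs were tested. In HCT116 0 of these 6 were called in either direction, where 3 of all 300 were (1%), and their median log2 fold change was 0.37. In Lovo 0 of 6 were called, with a median of 0.42 beside 0.03 over all 300. The host gene sums of this list, 9 of them tested, did not repeat that Lovo median. Their median log2 fold change was -0.03 in Lovo, beside 0.005 over all 580 host genes. In HCT116 it was 0.30 beside 0.04. The RhoGAP genes with most reads were ARHGAP12 with 228 and 155 reads in resistant and sensitive HCT116, FAM13B with 53 and 69, ARHGAP10 with 43 and 45, MYO9B, a myosin with a RhoGAP domain, with 32 and 24, and ABR with 4 and 1. ABR, a BCR-related protein, had 111 and 82 reads in resistant and sensitive Lovo. In Lovo, ARHGAP12 had 69 and 38 reads in resistant and sensitive cells, FAM13B 71 and 43, ARHGAP10 24 and 21, and MYO9B 24 and 28.

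Of 71 RhoGEF genes, 36 had reads, and 0 of their 2 tested circRNAs were called in either line (median log2 fold change -0.36 in HCT116 and -0.17 in Lovo). FGD6 led with 27 and 26 reads in resistant and sensitive HCT116 and 108 and 47 in resistant and sensitive Lovo. DOCK1, an exchange factor for Rac, had 52 and 60 reads in resistant and sensitive HCT116 and 16 and 22 in resistant and sensitive Lovo. TRIO, FGD4 and ARHGEF12 followed, with 118, 80 and 59 reads over the 12 libraries.

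The known partners of p190 RhoGAP proteins had no circRNA past the filter. Of 11 partner genes 6 had reads. These were 15 and 28 in resistant and sensitive HCT116 and 20 and 25 in resistant and sensitive Lovo. GTF2I had 2 and 12 reads in resistant and sensitive HCT116, uncertain because near-identical copies of this gene exist, while GSK3B and ABL2 had 19 each, PRKCA 4 and CTNND1 2 over the 12 libraries. In host gene sums these 3 lists gave 0 calls in either line, among 9 RhoGAP, 8 RhoGEF and 1 partner gene tested. Over all 580 host genes the called share was 0.517% in HCT116 and 0% in Lovo, so the 0 calls say nothing particular about the lists.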

How the data were processed

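The authors' table gives, per the file headers, junction reads as raw counts with no normalization, 1 column a library, with the position, strand, host gene, class, circBase identifier and predicted length of each circRNA, other annotation of the authors that was not measured. The submitters' processing notes name edgeR 3.16.5, STAR 2.5.1b, cutadapt 1.9.3 and genome build hg19, without saying what each was used for. How circRNAs were called, annotated, counted by strand and listed is not given in the sources used here. Library columns were matched to the labels' descriptions. Total counts ranged from 5654 to 10535.

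Counts were fitted with edgeR 4.0.16 in R 4.3.3: TMM scaling, filterByExpr (minimum count 5, minimum total 15), 1 quasi-likelihood fit of 12 libraries on 4 group means (8 residual degrees of freedom remained), and Benjamini-Hochberg adjustment over all circRNAs or host gene sums. A call needed an adjusted p under 0.05. SE is the log2 fold change over the square root of F. DESeq2 1.42.0, limma-voom (limma 3.58.1), scaling, filter, merging and left-out libraries were alternatives. The fit was tested on simulated counts. No replicate library matched another within sampling noise.

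The members and lists were chosen with earlier results of these data known. Junctions with at least 5 reads are described library by library, likeness uses log2 CPM with a prior count of 2 and names 5 circRNAs, neighbours lie within 2 Mb, and the 5 members of each list with most reads are named. Host names were matched through current and older symbols. Some listed genes and results are not reported here.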

Additional observations from a re-analysis of the deposited data

How the results depend on the processing

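In 20 alternatives the Lovo difference of hsa_circ_0031584 kept its direction (log2 fold change 2.38 to 4.72) and did not pass. It failed the filter when the Lovo libraries were fitted alone. Leaving out a library gave 4.02 to 4.72. The ARHGAP5 sum in Lovo ranged from 0.62 to 1.42 without passing. In Lovo the remainder outside hsa_circ_0031584 turned from -0.21 to 0.25 without sensitive replicate 3, 0.45 without resistant replicate 1 and 0.15 without resistant replicate 3, in a range of -1.94 to 0.45 over left-out libraries. hsa_circ_0031583, whose alternatives were added after seeing the data, turned from -0.21 to 0.19 without sensitive Lovo replicate 3 and to 0.49 without resistant Lovo replicate 1, in a range of -1.87 to 0.49. The cause was not tested. In HCT116 the difference of hsa_circ_0031584 ranged from 2.66 (without resistant replicate 1) to 3.09, that of hsa_circ_0031583 from 2.28 to 3.05 and that of the sum from 2.20 to 2.91. The remainder ranged from 1.00 to 2.85. The line difference in resistant cells ranged from 2.82 to 3.49.

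The number of circRNAs called in HCT116, 3, became 1 without a filter on low counts, where 14911 were tested, and 6 in limma-voom, and 1 to 5 with a library left out. In Lovo 0 became 1 with the Lovo libraries alone and 1 with junctions within 5 bases merged, and was 0 with any library left out. Replicate numbers recur across groups, but deviations of same-numbered libraries correlated between -0.0448 and 0.0625, so the numbers were not taken to pair samples. With a replicate block hsa_circ_0031584 had a log2 fold change of 4.47 in Lovo (edgeR adjusted p = 0.732) and 2.85 in HCT116, with 0 and 3 circRNAs called. At 6238 to 10535 reads in HCT116 and 5654 to 7568 in Lovo, depth limits every ARHGAP5 junction beyond the main pair.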
